A study of Mus musculus with 80 samples.

Results

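Neutrophil granule genes are described here through 10 members: S100a8, S100a9, Mpo, Elane, Ltf, Lcn2, Camp, Ngp, Mmp8 and Mmp9. They are 10 of the 17097 genes that had at least 1 probe set assigned to a single gene on the Affymetrix GeneChip HT MG-430 PM array. The members were listed by name for their known place in neutrophils, and each is read from its single-gene probe set, or from the one with the higher mean over all arrays where a gene had more than 1. Mmp9 had 2 such probe sets and the other 9 members had 1 each. Total RNA was taken from untreated male and female mice (lung, liver, kidney, heart and brain) on a C57BL/6 background, either wild type (WT) or carrying the Es-1 knockout (KO), which lacks serum carboxylesterase. There were 80 arrays from 23 animals (12 KO and 11 WT), in 20 groups of 4 arrays for each genotype, sex and organ, so that each organ had 8 KO and 8 WT arrays. Of these animals, 16 gave brain, heart, kidney and liver, 9 of the 16 also gave lung, and the other 7 animals gave lung only. Replicates are labelled by animal number, and the age of the mice is not given in the sources used here.

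Neutrophils carry their antimicrobial proteins in granules that are filled in sequence while the cell matures in the bone marrow, and the mRNAs of each granule class are made at that stage. Mpo (myeloperoxidase) and Elane (neutrophil elastase) belong to the primary granules. Ltf (lactoferrin, which binds iron), Lcn2 (lipocalin 2, which binds bacterial siderophores), Camp (the cathelicidin precursor), Ngp (neutrophilic granule protein) and Mmp8 (neutrophil collagenase) belong to the specific granules, and Mmp9 (gelatinase B) to the gelatinase granules. S100a8 and S100a9 are not granule proteins in the strict sense. They pair to form calprotectin, a calcium- and zinc-binding complex that fills the cytosol of mature neutrophils, and their mRNAs persist in circulating cells. Ltf and Lcn2 are also made outside neutrophils, Ltf by glandular and airway epithelium and Lcn2 by epithelium and by hepatocytes in the acute phase response.

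The sequences just before the start sites of the 4 members with the widest range of levels are shown. Among them, S100a8 and S100a9 moved together across animals in brain, heart, liver and lung, and Ltf moved against S100a9 in lung. Whether these sequences bear on that was not tested. The windows of 250 bases upstream of the RefSeq start come from build GRCm38.p6: S100a8 at chr3:90668821-90669070, plus strand, S100a9 at chr3:90695722-90695971, minus strand, Ltf at chr9:111019042-111019291, plus strand, and Lcn2 at chr2:32387740-32387989, minus strand. Each is written 5′ to 3′ on the strand of its gene, and capitals mark the motifs found.
S100a8: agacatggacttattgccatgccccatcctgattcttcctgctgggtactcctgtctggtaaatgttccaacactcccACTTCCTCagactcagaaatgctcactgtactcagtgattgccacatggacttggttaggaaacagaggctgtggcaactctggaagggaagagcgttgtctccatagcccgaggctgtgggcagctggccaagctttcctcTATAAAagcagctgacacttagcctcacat
S100a9: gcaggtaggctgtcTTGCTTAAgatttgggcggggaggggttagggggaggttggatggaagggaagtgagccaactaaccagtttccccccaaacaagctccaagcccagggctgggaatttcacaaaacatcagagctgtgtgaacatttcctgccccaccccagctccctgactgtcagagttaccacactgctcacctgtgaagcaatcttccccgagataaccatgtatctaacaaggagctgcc
Ltf: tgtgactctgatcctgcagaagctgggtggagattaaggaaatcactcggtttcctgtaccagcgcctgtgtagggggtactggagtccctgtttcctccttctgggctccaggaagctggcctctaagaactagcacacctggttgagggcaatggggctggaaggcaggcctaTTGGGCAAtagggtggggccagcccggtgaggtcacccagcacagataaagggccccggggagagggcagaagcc
Lcn2: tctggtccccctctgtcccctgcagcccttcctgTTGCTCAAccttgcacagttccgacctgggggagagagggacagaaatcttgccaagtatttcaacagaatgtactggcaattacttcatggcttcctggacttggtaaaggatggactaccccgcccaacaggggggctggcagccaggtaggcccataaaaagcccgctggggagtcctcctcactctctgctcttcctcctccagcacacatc

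Of the 10 members, 9 had a RefSeq promoter entry, and Mmp9 had none. The letters TATAAA were searched on the gene strand, and those of TTGCNNAA (a core of C/EBP sites, the family that drives late granule genes) and GAGGAAGT (a PU.1 site) on both strands. TATAAA occurred in 7.59% of all 32851 promoter windows of the same length and in 1 of the 9 member windows, that of S100a8, at 30 bases before the start. TTGCNNAA occurred in 9.56% of all windows and in 5 of 9 member windows, those of Lcn2, Ltf, Mmp8, Ngp and S100a9. GAGGAAGT occurred in 2.44% of all windows and in 4 of 9 member windows, those of Elane, Mmp8, Mpo and S100a8, and in the S100a8 window it stands on the opposite strand at 172 bases before the start. These matches describe letters and do not show binding. S100a8 and S100a9 are neighbours on chromosome 3 with no protein-coding gene between them. Camp, Ngp and Ltf lie together on chromosome 9, with 8 protein-coding genes between Camp and Ngp and 20 between Ngp and Ltf.

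All values are log2 expression after RMA (robust multi-array average), on a scale that ran from 2.23 to 14.06 over the probe sets, with array medians between 3.94 and 4.22 over all probe sets. Counts of arrays in which a member exceeded its array median use these medians. Over the 17097 genes, each read from 1 probe set, the array medians were higher and differed by organ, with means from 5.04 in liver to 5.67 in lung, and centring used the medians over genes. The number of arrays, and not a read depth, limits their precision. Of the 80 arrays, 80 had the marker list of their labelled organ as the highest of the organ lists. The targeted gene, Ces1c, was at 12.11 to 12.63 in WT livers and at 9.70 to 10.17 in 7 KO livers, whereas the array labelled KO male 952 liver had 12.04. In the other organs Ces1c gives no check of the labels, since KO arrays were at most 3.42 and WT medians were between 3.10 and 3.52, but WT male 903 heart had 8.51 and WT female 1264 kidney 5.21. The mean of the liver markers was also high in those arrays, at 10.28 and 8.41. Over all kidneys that mean ran from 6.59 to 8.41, with a median of 7.18, and the next highest kidney had 7.75. The hearts of KO male 962 and KO female 982 stood at 8.12 and 8.29 for that mean, and the remaining 13 hearts ran from 3.91 to 5.78. Lcn2 was 4.10 in WT male 903 heart, 4.02 in KO male 962 heart and 3.81 in KO female 982 heart, within the range of the 16 hearts (3.48 to 4.96), and the part of liver RNA in the heart values was not tested. The array titled KO female 994 heart is labelled lung in its tissue field and was placed by its title. No processing batch is given in the sources used here.

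Calprotectin mRNA was far more abundant in lung than in any other organ. S100a9 averaged 8.49 ± 1.38 (SD, n = 16) in lung, 5.66 ± 0.59 in heart, 5.53 ± 0.76 in liver, 4.55 ± 0.62 in brain and 4.12 ± 0.47 in kidney. The step from lung to heart was 2.83 log2 units (SE 0.29), a 7.12-fold difference, and passed the test (limma over all 80 arrays, Benjamini-Hochberg adjusted p = 4.46e-14). In the same limma fit, heart and liver were not called different (adjusted p = 0.695), nor were brain and kidney (adjusted p = 0.161). Liver exceeded brain (0.97 units, SE 0.29, limma adjusted p = 0.00155). The fit takes a single variance per gene over all organs, so the wide lung spread enters the SE of every step. A step not called in it is therefore not shown to lie within the spread of its own organs. In bulk tissue, fewer cells of a type and less RNA per cell cannot be told apart.

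S100a8 followed the same order: 8.08 ± 1.42 (SD, n = 16) in lung, 4.81 ± 0.54 in heart, 4.53 ± 0.76 in liver, 4.27 ± 0.43 in brain and 3.82 ± 0.26 in kidney. The step of 3.27 units (SE 0.29) from lung to heart passed (limma adjusted p = 1.28e-16), and none of the lower neighbouring steps did, although kidney was 0.98 units (SE 0.29) below heart with a limma adjusted p of 0.0019.

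The primary granule genes showed no lung signal of this kind. Mpo ranged only from 3.16 ± 0.12 (SD, n = 16) in lung to 3.60 ± 0.30 in liver, and its probe set exceeded the median of its own array in 2 of 16 livers and in 0 arrays of the other organs. Elane was at 3.90 ± 0.24 in liver and 3.80 ± 0.30 in heart, against 3.44 ± 0.14 in kidney and 3.29 in both lung and brain. Liver and heart were not called different for Elane (limma adjusted p = 0.196). Both lay above kidney, the step from heart to kidney being 0.36 units (SE 0.07, limma adjusted p = 6.93e-06).

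Among the specific granule genes, Ltf and Lcn2 were lung-high and Camp and Ngp were not. Ltf stood at 8.20 ± 1.41 (SD, n = 16) in lung and between 3.70 in kidney and 4.24 in heart elsewhere, a step of 3.96 units (SE 0.34) from lung to heart (limma adjusted p = 6.93e-17), with no called step among the other 4 organs. Ltf exceeded its array median in 3 of 16 hearts, whose median was 3.64, and 2 KO hearts at 7.96 and 8.56 lifted the heart mean. With WT arrays alone the step was 4.62 units (SE 0.43). Lcn2 was the one member whose every neighbouring step passed: 9.48 ± 0.50 in lung, 6.47 ± 1.25 in liver, 4.70 ± 0.40 in kidney, 3.85 ± 0.37 in heart and 3.23 ± 0.24 in brain, the smallest step being 0.63 units (SE 0.19, limma adjusted p = 0.00285) from heart to brain. Camp was highest in liver, at 3.87 ± 0.33 against 3.46 to 3.63 in the other organs. Its step from liver to brain passed (0.23 units, SE 0.09, limma adjusted p = 0.0115). Camp exceeded its array median in 4 of 16 livers, 1 of 16 lungs and 0 arrays of brain, heart and kidney. Ngp ran from 4.05 ± 0.34 in brain and 4.01 ± 0.18 in liver to 3.55 ± 0.16 in kidney, where only the last step, from lung to kidney, passed (0.29 units, SE 0.13, limma adjusted p = 0.039).

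Of the matrix metalloproteinases, Mmp9 was at 5.08 ± 0.55 (SD, n = 16) in lung, 4.29 ± 0.21 in heart and between 3.92 and 3.97 in liver, kidney and brain. Its steps from lung to heart (0.79 units, SE 0.11) and from heart to liver (0.31 units, SE 0.11) passed in limma with adjusted p of 6.33e-10 and 0.00742. No step among the lower 3 organs was called. Mmp8 was at 3.50 ± 0.43 in lung and 3.07 to 3.30 elsewhere, and its step of 0.20 units from lung to liver passed (SE 0.09, limma adjusted p = 0.0279). It exceeded its array median in 2 of 16 lungs and in 0 arrays of the other organs.

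**Figure D1:**
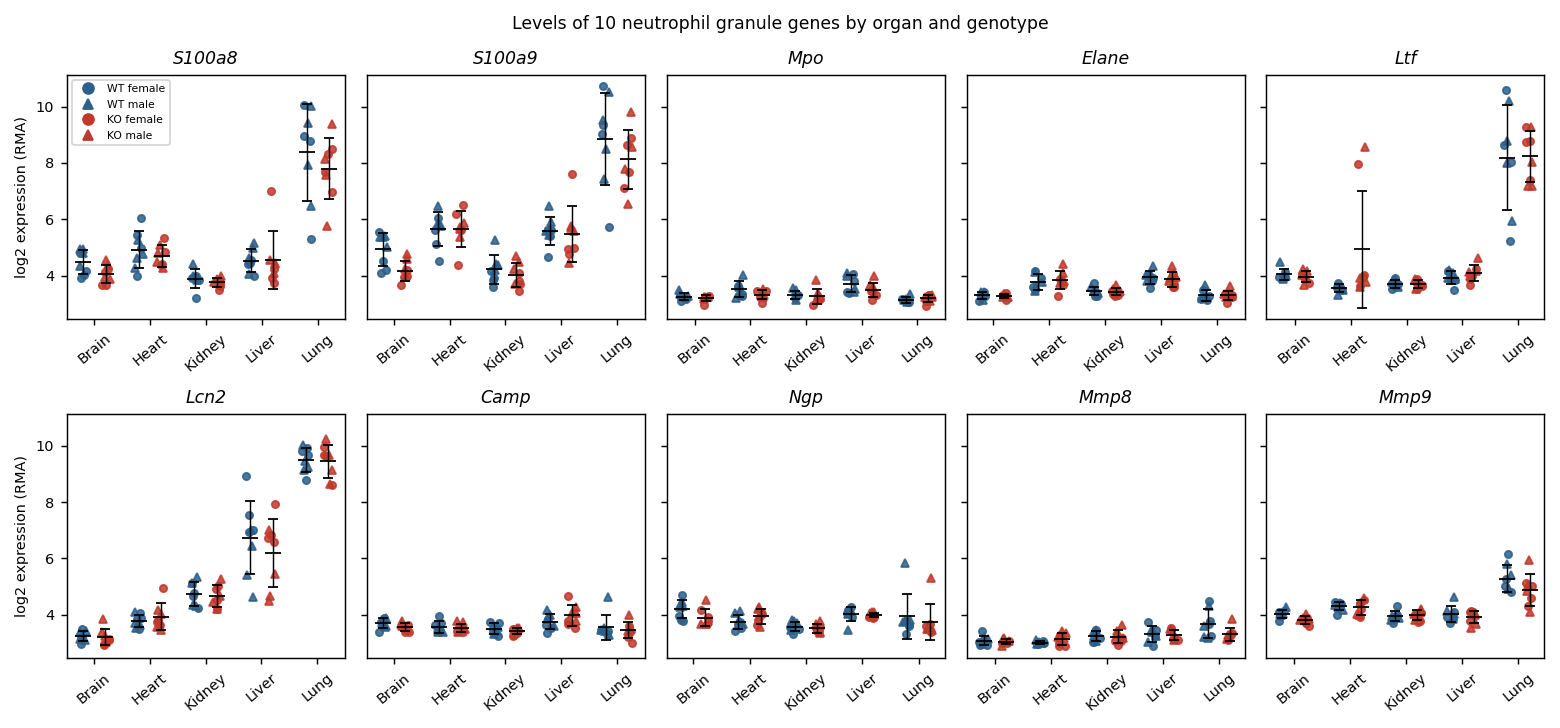
Log2 expression of the 10 members by organ and genotype, 1 point per array (circles female, triangles male, blue WT, red KO), with the mean and SD of 8 arrays. Means are highest in lung for S100a8, S100a9, Ltf, Lcn2, Mmp9 and Mmp8, for Mmp8 by only 0.20 units over liver. For each of these genes some arrays of another organ lie inside the lung range. For Ltf, 2 KO hearts stand apart from the other hearts at 7.96 and 8.56.

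Most genes on the array differ between organs, so these counts of members are read against that background. For lung minus heart, 6 members were higher and 2 (Mpo and Elane) lower at an adjusted p of 0.05, beside 36.6% and 42.5% of all 17097 genes. For lung minus liver, 6 were higher and 3 (Mpo, Elane and Camp) lower, beside 38.4% and 47.4%. For lung minus kidney, 7 were higher and 0 lower, beside 34.4% and 38.4%, and for lung minus brain 6 and 0, beside 38.3% and 35.6%. Camp, Elane, Lcn2, Mpo and S100a9 were called higher in liver than in both kidney and brain. Of these, Camp exceeded its array median in 4 of 16 livers, Elane in 3 and Mpo in 2. For S100a8, S100a9, Ltf and Mmp9, heart had the second highest mean. Liver minus kidney had 7 members higher and 0 lower, beside 38.7% and 34.8% of all genes, liver minus brain 6 and 0, beside 50.1% and 35.7%, and liver minus heart 4 and 1 (Mmp9), beside 35.7% and 35.5%. Heart minus brain had 5 higher and 0 lower, beside 47.4% and 32.3%, kidney minus brain 2 (Elane and Lcn2) and 1 (Ngp), beside 42.5% and 31.9%, and kidney minus heart 1 (Lcn2) and 5, beside 29.6% and 37.1%. Several of these counts moved with the arrays used: with WT arrays alone, liver minus heart had 1 member called in either direction in place of 5, heart minus brain 3 in place of 5 and liver minus brain 3 in place of 6. Liver minus heart had 3 after quantile normalisation, and kidney minus brain had 8 in place of 3 on the 32 arrays of both organs. The lung-high position of S100a8, S100a9, Ltf, Lcn2 and Mmp9 passed against every other organ with the deposited scale, after a renewed quantile normalisation and after centring each array on its median over the 17097 genes. Since those medians differed by organ, centring moved the median difference of all genes from -0.10 to -0.73 for lung minus liver, where all-gene calls went from 6569 higher and 8109 lower to 3881 and 11968, and the members from 6 higher and 3 lower to 5 and 5. Mmp8 turned from higher to lower in that comparison and Ngp was newly called lower.

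The comparison of KO with WT asks whether loss of serum carboxylesterase alters these genes in unchallenged mice. In brain, S100a9 was lower in KO than in WT but did not pass the test over all genes. The KO female brains had 4.18 (animal 781), 3.66 (982), 4.0 (985) and 3.96 (994), and the KO male brains 3.97 (952), 4.76 (962), 4.59 (964) and 4.25 (1259). The WT female brains had 5.54 (876), 4.08 (936), 4.51 (1264) and 4.20 (1265), and the WT male brains 5.02 (901), 5.42 (902), 5.35 (903) and 5.38 (1262). The 4 WT male brains and WT female 876 lay above every KO brain, while the other WT female brains lay inside the KO range. The difference was -0.77 log2 units (SE 0.17, n = 8 against 8), with a limma adjusted p of 0.495, and over the alternatives run the adjusted p ranged from 0.321 to 1.0. Its unadjusted p stood at rank 8 of 17097 genes.

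S100a8, Ngp and Mmp9 showed smaller differences of the same sign in brain. S100a8 averaged 4.05 ± 0.32 (SD, n = 8) in KO, with a lowest value of 3.65 and a highest of 4.54, and 4.49 ± 0.43 in WT, from 3.91 to 4.95. The highest 4 brains were WT males 902, 903 and 1262 and WT female 876, while WT male 901 and the other WT females lay inside the KO range. The difference was -0.44 (SE 0.15, limma adjusted p = 0.730). Ngp averaged 3.90 ± 0.31 in KO and 4.21 ± 0.32 in WT, a difference of -0.31 (SE 0.14, limma adjusted p = 0.812), with WT female 876 again highest at 4.70, and it was -0.20 without that brain and -0.41 without KO male 962. Mmp9 averaged 3.81 ± 0.14 in KO and 4.04 ± 0.15 in WT, a difference of -0.22 (SE 0.07, limma adjusted p = 0.703), and its second probe set differed by -0.08 (SE 0.08). For both genes the genotypes overlapped: KO male 962 was the highest KO brain, at 4.53 for Ngp and 4.03 for Mmp9, above several WT brains.

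In brain, 0 of 10 members passed the adjusted threshold in limma, beside 0% of all genes. At an unadjusted p under 0.05, 4 members were lower in KO and 0 higher, beside 1.87% of all genes lower and 4.10% higher. The sign was below 0 for 10 of 10 members, beside 43.8% of all genes, and the median difference of the members was -0.11 against 0.01 for all genes. Several of these signs come from low signals. Camp, Elane, Lcn2, Mmp8 and Mpo exceeded their array median in 0 of 16 brains. Mmp9 did so in 3, Ltf in 4, Ngp in 7, S100a8 in 10 and S100a9 in 11. Elane differed by only -0.01 (SE 0.06) and Lcn2 by -0.03 (SE 0.10). Leaving out 1 brain at a time put the S100a9 difference between -0.85 and -0.61, the smallest without WT female 876. The 35 measured of 47 other neutrophil genes did not share the sign: 18 were below 0, their median was -0.0045, and 0 passed in limma with 3 at an unadjusted p under 0.05. Those 3 were Pglyrp1 (a peptidoglycan-binding granule protein) at 0.45 (SE 0.13, limma adjusted p = 0.621), Cxcr2 (a chemokine receptor) at -0.19 (SE 0.08) and Itgam (an integrin of myeloid cells) at 0.32 (SE 0.15).

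Bone transcripts moved with the calprotectin genes in brain. Over the 16 brains, as deviations from the mean of each genotype and sex, the mean of 13 measured bone genes had an r of 0.86 with S100a9, and 12 of the 13 genes had an r above 0. Without WT female 876 that r was 0.70 (n = 15). For S100a8 the r was 0.69, with 10 of the 13 genes above 0, and 0.55 without WT female 876. The list was added after its genes were seen among those most like the members, so this is a description. WT female 876 had a bone list mean of 4.39, Col1a1 (type I collagen) at 5.39 and Bglap (osteocalcin) at 5.44, whereas the other 15 brains had list means from 3.88 to 4.10. The bone genes themselves gave no genotype call, with a median KO minus WT difference of 0.02 in brain and 0 of 13 passing in limma (1 at an unadjusted p under 0.05), and the WT male brains, which were high in S100a9, had list means of 3.88 to 3.98. The part of bone tissue in the brain values was not tested.

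**Figure D2:**
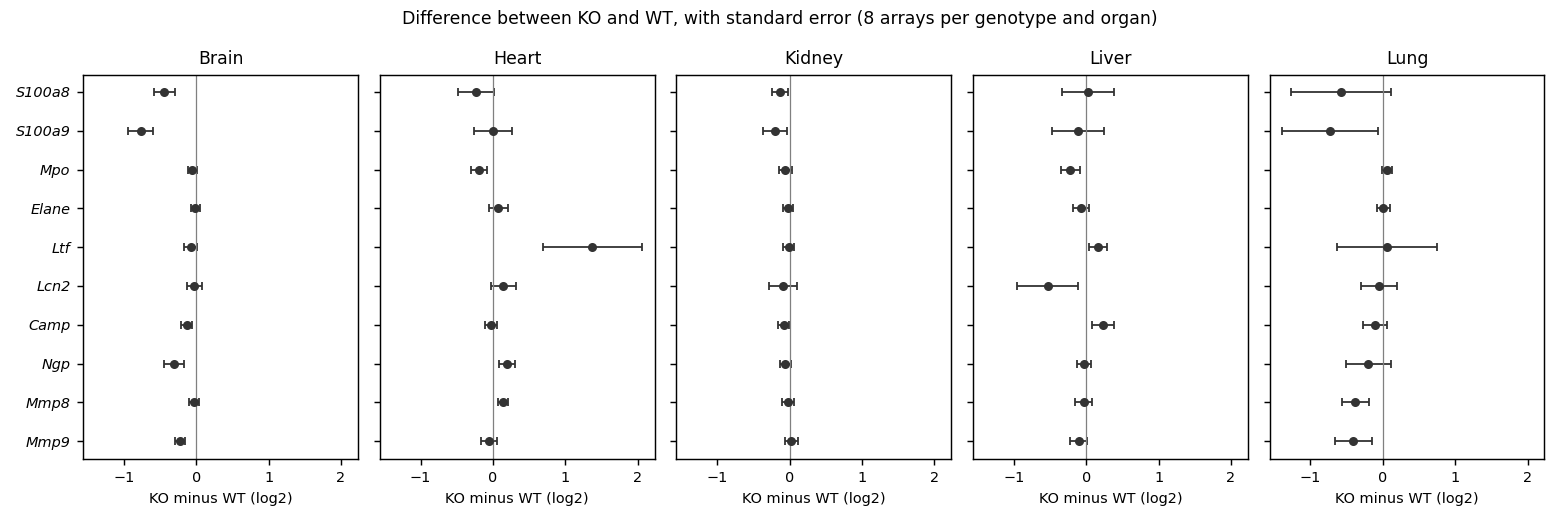
Difference between KO and WT in log2 units with its standard error for each member in each organ, 8 arrays per genotype. In brain S100a9 is at -0.77 and all 10 members lie below 0, and the widest intervals are those of S100a8, S100a9 and Ltf in lung and of Ltf in heart. Camp, Elane, Lcn2, Mmp8 and Mpo exceeded their array median in 0 of 16 brains.

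In lung the calprotectin genes varied widely within each genotype, and the SE of the KO minus WT difference of S100a9 was 0.66, against 0.17 in brain. What size of difference 8 arrays a side could detect was not tested. S100a9 in KO lungs was 7.11, 8.62, 7.68 and 8.90 in females 781, 994, 1897 and 1898, and 8.57, 7.78, 6.53 and 9.79 in males 952, 1259, 1870 and 1871. In WT lungs it was 5.74, 9.35, 9.03 and 10.74 in females 876, 1264, 1265 and 1951, and 7.44, 9.53, 8.48 and 10.52 in males 903, 1262, 1953 and 1960. The lowest lung and the highest were both WT females, and the KO lungs lay inside the WT range. The difference was -0.73 (SE 0.66, limma adjusted p = 0.977), and that of S100a8 was -0.58 (SE 0.69, limma adjusted p = 0.979). Mmp9 differed by -0.41 (SE 0.25) and Mmp8 by -0.38 (SE 0.19), both with a limma adjusted p of 0.977. Leaving out 1 lung put S100a9 between -1.23 (without WT female 876) and -0.39 (without WT female 1951), and S100a8 between -1.08 (without WT female 876) and -0.26 (without KO male 1870). It put Mmp9 between -0.57 (without KO male 1871) and -0.26 (without KO male 1870), and Mmp8 between -0.47 (without WT female 876) and -0.26 (without WT male 1960). Lcn2 was at -0.06 (SE 0.25) and Ltf at 0.05 (SE 0.69). Without the 7 animals that gave lung only, S100a9 was at -0.24, S100a8 at -0.02 and Ltf at -0.45.

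In heart the largest difference of a member was that of Ltf, and it came from 2 arrays. Ltf in KO hearts was 7.96, 3.64, 3.95 and 4.01 in females 781, 982, 985 and 994, and 3.90, 3.61, 8.56 and 3.78 in males 952, 962, 964 and 1259. The 8 WT hearts ran from 3.30 to 3.74 with a median of 3.58. KO female 781 and KO male 964 stood more than 3 units above every other heart. The difference was 1.37 (SE 0.69, limma adjusted p = 0.997), and 0.26 (SE 0.08) without those 2 hearts. Leaving out 1 heart put it between 0.77 (without KO male 964) and 1.60 (without KO male 962). In the same 2 hearts the mean of the lung markers was 4.95 and 5.30, against 3.47 to 3.68 in the other 14, and the mean of 14 airway epithelium genes was 7.17 and 7.65, against 3.65 to 4.27. The part of lung or airway tissue in these values was not tested. S100a9 was at 0.00 (SE 0.27) and S100a8 at -0.23 (SE 0.25) in heart, the latter between -0.42 (without WT female 876) and -0.074 (without WT female 1264) when 1 heart was left out.

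In liver, S100a8 and S100a9 differed little between the genotypes, but 1 KO female had high levels of both. S100a9 was 4.97, 4.93, 4.75 and 7.61 in KO females 781, 982, 985 and 994, and 5.76, 5.58, 5.69 and 4.45 in KO males 952, 962, 964 and 1259. WT livers had 4.65, 5.41, 5.61 and 5.61 in females 876, 936, 1264 and 1265, and 5.91, 5.57, 6.46 and 5.45 in males 901, 902, 903 and 1262. KO female 994 lay above every other liver. Its S100a8 was 7.0, against at most 5.15 in the other livers, and its Camp, at 4.67, was also the highest of the 16. The KO minus WT difference was -0.12 (SE 0.36) for S100a9 and 0.02 (SE 0.36) for S100a8, with limma adjusted p of 0.994 and 0.998. Without that liver and the array labelled KO male 952 liver the differences were -0.52 (SE 0.22) and -0.39 (SE 0.16), with a limma adjusted p of 1.0 each. Lcn2 was at -0.53 (SE 0.42) and Camp at 0.23 (SE 0.15). Leaving out 1 liver put Lcn2 between -0.80 (without KO male 964) and -0.31 (without WT female 936), and Camp between 0.10 (without KO female 994) and 0.29 (without KO female 982).

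In kidney, S100a9 was at -0.20 (SE 0.16) and S100a8 at -0.14 (SE 0.11), and the other 8 members lay between -0.09 and 0.03. Leaving out 1 kidney put S100a9 between -0.27 (without KO male 964) and -0.082 (without WT male 901), and S100a8 between -0.23 (without WT female 876) and -0.079 (without WT male 901). No call among the members was made by limma outside brain either: 0 of 10 passed in kidney, beside 0% of all genes, and 0 of 10 in each of heart, liver and lung, beside 0.00585% in each. At an unadjusted p under 0.05 the members numbered 0 in either direction, beside 2.78% of all genes lower and 2.02% higher in lung, 2.06% and 2.49% in heart, 1.74% and 1.61% in liver, and 0.749% and 2.61% in kidney. The ranges of KO and WT overlapped for every member in every organ, where the share of all genes whose ranges did not overlap was 0.0117% in brain, 0.0234% in heart, 0.00585% in kidney and 0.0175% in liver and lung. Members below 0 numbered 7 in lung, 4 in heart, 7 in liver and 9 in kidney, beside 54.8%, 47.8%, 51.4% and 38.7% of all genes. The median differences of the members were -0.16, 0.04, -0.05 and -0.06 in that order, and those of all genes -0.012, 0.0055, -0.0044 and 0.021. The comparisons share no arrays but most animals. In a test of whether the genotype difference itself varied over the 5 organs, 0 members passed (limma F test over 80 arrays, smallest unadjusted p 0.0515 for Mmp8), beside 0.0292% of all genes. The test of whether it varied between the sexes called 0 members in each organ, beside 0% of all genes in each, with 1 member at an unadjusted p under 0.05, in heart.

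Genes that act with the granule proteins gave no call for KO against WT in any organ. Of 17 measured genes for granulocyte growth and chemotaxis, 10 granulocyte transcription factors, 10 calprotectin receptors and partners, and 12 partners of the granule proteases and iron carriers, 0 passed in each organ in limma. Of all genes, 0% passed in brain and kidney and 0.00585% in each of heart, liver and lung. The most at an unadjusted p under 0.05 were 3 of the calprotectin receptors and partners, higher in heart, beside 2.49% of all genes. In brain, the transcription factors had 2 genes higher at that level and 1 of 10 below 0, beside 4.1% and 43.8% of all genes. The mean of the 35 other neutrophil genes was 6.03 ± 0.20 (SD, n = 8) in KO lungs and 6.14 ± 0.15 in WT lungs, and 4.18 ± 0.03 and 4.17 ± 0.04 in KO and WT brains. These lists were written with earlier results of these data known.

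Between the sexes, S100a9 was higher in male than in female kidneys, at low levels: it exceeded its array median in 9 of 16 kidneys. Female kidneys had 3.71, 3.80, 3.46 and 4.08 in KO animals 781, 982, 985 and 994, and 3.58, 3.83, 3.90 and 4.18 in WT animals 876, 936, 1264 and 1265. Male kidneys had 4.47, 4.24, 4.68 and 3.69 in KO animals 952, 962, 964 and 1259, and 5.28, 4.38, 4.18 and 4.42 in WT animals 901, 902, 903 and 1262. All males but KO male 1259 were above the highest female, and the sexes overlapped through KO male 1259. The difference was 0.60 (SE 0.16, limma adjusted p = 0.0134), and over the alternatives the adjusted p ran from 0.00278 to 0.373, the highest with the animal as a random replicate block over all 80 arrays, where the difference was 0.58. It was the 1 member of 10 that passed, beside 21.6% of all genes. After centring on array medians 6 members were higher in males and 0 lower. That centring moved the median of all genes from 0.03 to 0.14 and all-gene calls from 1673 higher and 2028 lower to 4814 and 1408.

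In liver, Lcn2 was higher in females. The female livers had 6.57, 6.82, 7.93 and 6.74 in KO animals 781, 982, 985 and 994, and 6.95, 8.91, 7.55 and 7.0 in WT animals 876, 936, 1264 and 1265. The male livers had 4.68, 5.43, 7.0 and 4.48 in KO animals 952, 962, 964 and 1259, and 6.44, 7.0, 5.42 and 4.62 in WT animals 901, 902, 903 and 1262. The sexes overlapped through KO male 964 and WT male 902, and the other 6 male livers lay below every female liver. The difference was -1.67 (SE 0.42, limma adjusted p = 0.0294), 3.19-fold, beside 4.96% of all genes that passed. The adjusted p ran from 3.28e-06 to 0.0797 over the alternatives, and leaving out 1 liver took it to between 0.0523 and 0.0651 for each of 8 livers, those of KO female 985, KO males 952, 962 and 1259, WT females 936 and 1264, and WT males 903 and 1262. All-gene calls in that comparison were 339 higher and 509 lower in males, and 694 and 373 after centring on array medians, where Lcn2 still passed.

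Other acute phase genes of the liver were divided between the sexes. Of 16 measured, 4 were lower in males, Lcn2 among them, and 1 higher, beside 2.98% and 1.98% of all genes. Orm3 (an orosomucoid) differed by -2.34 (SE 0.55), Orm2 by -1.21 (SE 0.30), Apcs (serum amyloid P) by -0.69 (SE 0.15) and Lrg1 (leucine-rich alpha-2-glycoprotein) by 0.67 (SE 0.17), with limma adjusted p between 0.0111 and 0.0282. Over the 16 livers, as deviations from group means, Lcn2 rose with the mean of the 15 other acute phase genes, with r = 0.69 (permutation p = 0.0037, adjusted over 5 organs p = 0.0185) and Spearman's rho = 0.67 (permutation p adjusted = 0.0298). Without the 2 livers farthest from the median of the list r was 0.63. In the other 4 organs r lay between 0.10 and 0.39 and 0 passed after adjustment. Of 17 measured monocyte and macrophage genes, 6 were lower in male livers and 0 higher, beside 2.98% of all genes lower there, and 5 were lower in male kidneys and 0 higher, beside 11.9%. Their part in the Lcn2 and S100a9 differences was not tested.

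In brain, S100a9 was higher in males by 0.58 (SE 0.17) and S100a8 by 0.39 (SE 0.15), which did not pass (limma adjusted p = 0.274 and 0.397). Without WT female 876, the one female brain among the high males, the S100a9 difference was 0.73 with a limma adjusted p of 0.0326, and over all alternatives the adjusted p ran from 0.0326 to 1.0. In brain, heart and lung 0 members passed for sex, beside 0.0994%, 0.269% and 0.0526% of all genes, and 2 members in brain, 1 in heart and 0 in lung were higher in males at an unadjusted p under 0.05, beside 3.4%, 3.68% and 1.63% of all genes.

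**Figure D3:**
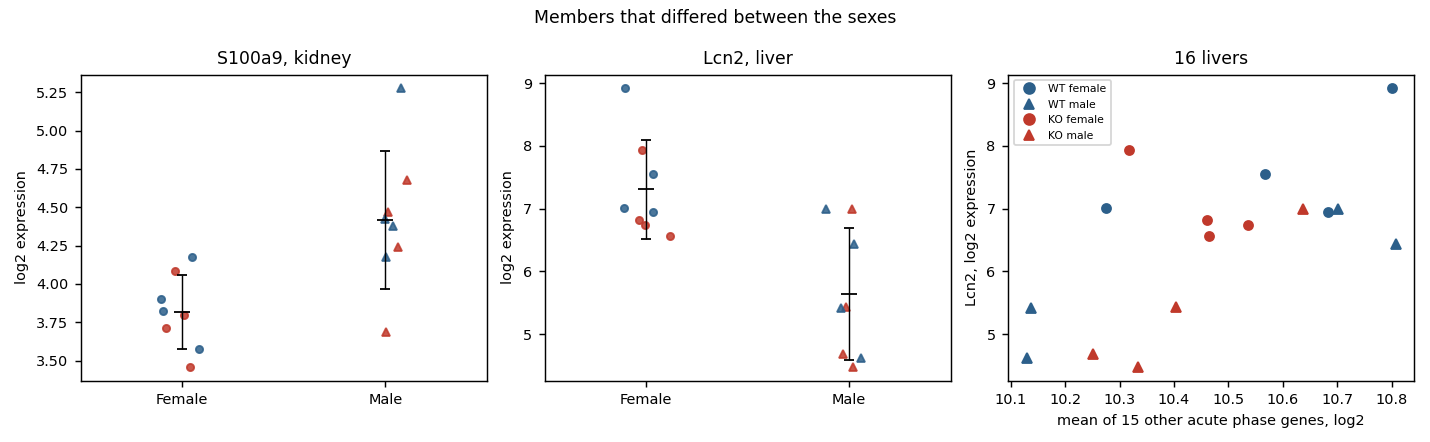
S100a9 in kidney and Lcn2 in liver by sex (log2, 1 point per array, mean and SD of 8), and Lcn2 against the mean of 15 other acute phase genes in the 16 livers. Male kidneys average 4.42 against 3.82 in females for S100a9, and male livers average 5.63 against 7.31 for Lcn2. S100a9 exceeded its array median in 9 of 16 kidneys.

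Within brain, heart, liver and lung, animals that were high in S100a9 were also high in S100a8, whereas in kidney that relation did not pass. The remaining members divided. The 9 other members were set against S100a9 within each organ as deviations from group means, 45 relations in all with adjustment over the 45, a set added after the data were seen. In lung (n = 16) S100a8 had r = 0.99 and rho = 0.95 (permutation p = 1e-05 for both, the smallest 100000 permutations can give; adjusted p = 0.00015 and 0.000225), and r = 0.97 without the 2 farthest lungs. Mmp9 had r = 0.87 and rho = 0.96 (adjusted permutation p = 0.00054 and 0.000225; r = 0.90 without the 2 farthest). Mmp8 had r = 0.87 and rho = 0.87 (adjusted permutation p = 0.000225 and 0.00072; r = 0.87 without the 2 farthest). Lcn2 had r = 0.72 and rho = 0.66 (adjusted permutation p = 0.00675 and 0.0376; r = 0.56 without the 2 farthest), and Elane r = 0.72 and rho = 0.69 (adjusted permutation p = 0.0076 and 0.028; r = 0.77 without them). Mpo (r = 0.24), Camp (r = 0.35) and Ngp (r = 0.45) did not pass. Within the 7 lungs from animals that gave lung only and within the 9 others, r was 0.99 and 0.99 for S100a8, 0.98 and 0.79 for Mmp9, 0.89 and 0.96 for Mmp8, and 0.84 and 0.66 for Lcn2. For Elane it was 0.84 and 0.48. Elane exceeded its array median in 0 of 16 lungs and Mmp8 in 2 of 16.

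Ltf ran the other way. Its lung relation with S100a9 had r = -0.74 and rho = -0.58 (adjusted permutation p = 0.00675 for r and 0.0936 for rho), and r = -0.79 without the 2 farthest lungs. It was -0.71 within the 7 lungs from animals that gave lung only and -0.82 within the 9 others. The lungs with the most S100a9, those of WT female 1951 at 10.74 and WT male 1960 at 10.52, had the least Ltf, at 5.22 and 5.95, and that with the least S100a9, WT female 876 at 5.74, had the most Ltf, at 10.60. Airway epithelium genes moved with Ltf: the mean of 14 such genes, a list added after the values were seen, had r = 0.93 with Ltf and r = -0.69 with S100a9 over the 16 lungs. The mean of 9 heart markers, which ranged from 6.20 to 10.03 in lung, had r = 0.62 with Ltf and -0.57 with S100a9. Ltf averaged 7.10 ± 1.19 (SD, n = 7) in lungs from lung-only animals and 9.06 ± 0.88 (n = 9) in lungs from the others, and S100a9 8.95 ± 1.53 and 8.13 ± 1.23. How much airway and heart tissue each lung sample held was not tested.

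**Figure D4:**
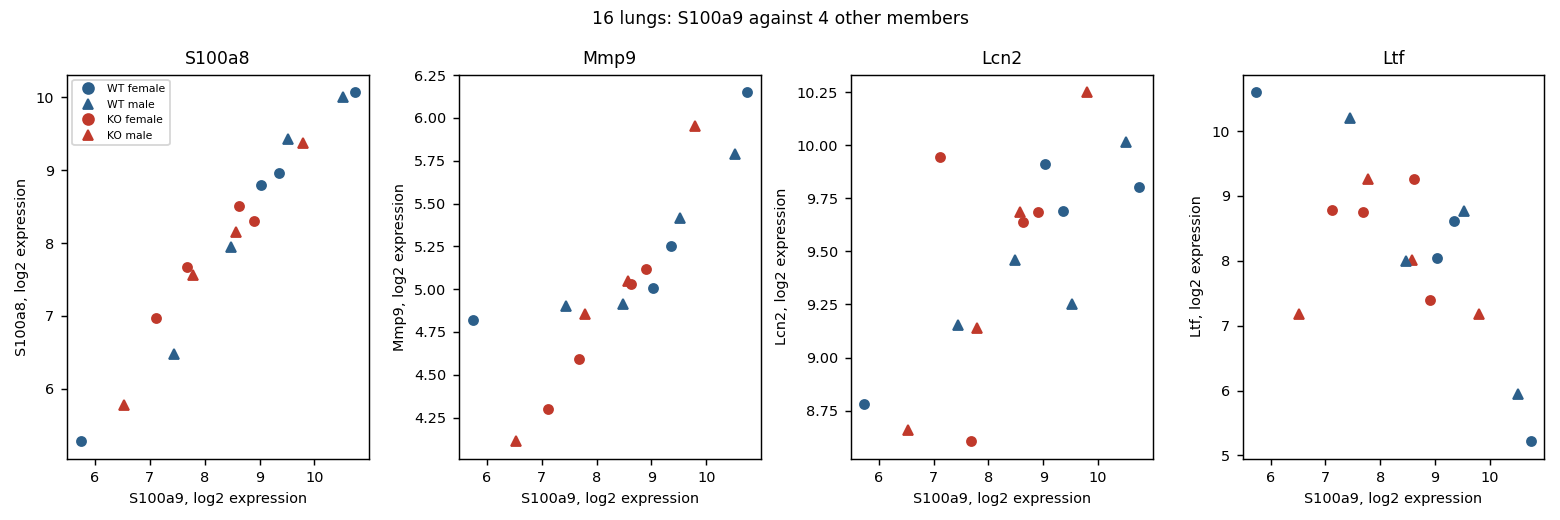
Log2 expression of S100a8, Mmp9, Lcn2 and Ltf against S100a9 in the 16 lungs, coloured by genotype and shaped by sex. S100a8, Mmp9 and Lcn2 rise with S100a9, and Ltf falls from 10.60 to 5.22 across its range.

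Ngp and Camp were high in few lungs. Ngp was 5.30 in KO male 1871 and 5.84 in WT male 1960 and between 3.32 and 3.83 in the other 14 lungs, and Camp was 4.65 in WT male 1960 and at most 3.99 elsewhere. Both animals gave lung only, and their lungs were among the 3 highest for S100a9. WT male 1960 also had the highest Elane of the 16 lungs, 3.65, and a Mmp8 of 4.32.

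In brain, S100a8 (r = 0.89, rho = 0.86, adjusted permutation p = 0.00015 and 0.000675; r = 0.86 without the 2 farthest) and Ngp (r = 0.77, rho = 0.65, adjusted permutation p = 0.00264 and 0.042; r = 0.60 without them) moved with S100a9. In liver, S100a8 did (r = 0.94, rho = 0.83, adjusted permutation p = 0.00015 and 0.000975; r = 0.91), and Camp passed by r alone (r = 0.68, adjusted permutation p = 0.0301; rho = 0.41, adjusted p = 0.287; r = 0.41 without the 2 farthest, so the relation rests on them). In heart, S100a8 was the member that passed (r = 0.80, rho = 0.84, adjusted permutation p = 0.00195 and 0.0006; r = 0.90), and in kidney 0 of 9 passed, with S100a8 at r = 0.58 (adjusted permutation p = 0.0613; rho = 0.54).

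As deviations from group means, an animal's calprotectin level was not shown to be shared between its organs. Over the 20 relations of S100a8 and of S100a9 between pairs of organs, 0 passed after adjustment. The lowest adjusted permutation p was 0.068. Heart and lung of the same 9 animals had r = 0.84 for S100a8 (rho = 0.85, permutation p = 0.00377 and adjusted 0.068). For S100a9 they had r = 0.82 (rho = 0.77, permutation p = 0.00756 and adjusted 0.068). Without the 2 farthest animals r fell to 0.64 and 0.53. Brain and lung had r = -0.81 for S100a9 (rho = -0.45, permutation p = 0.0141 and adjusted 0.0705) and -0.40 without the 2 farthest. WT female 876 had the highest brain S100a9 (5.54), the lowest lung S100a9 (5.74) and the lowest kidney S100a8 (3.19). KO female 994 had the highest heart S100a9 (6.50) and the highest liver S100a9 (7.61), while its brain was at 3.96. Of the same 20 relations on the values themselves, which also carry the differences between the groups, S100a9 in kidney and liver passed by rank (rho = 0.73, permutation p adjusted = 0.0316). Its r was 0.47 (permutation p adjusted = 0.209) and 0.45 without the 2 farthest animals, and on deviations its rho was 0.55 (permutation p adjusted = 0.207).

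**Figure D5:**
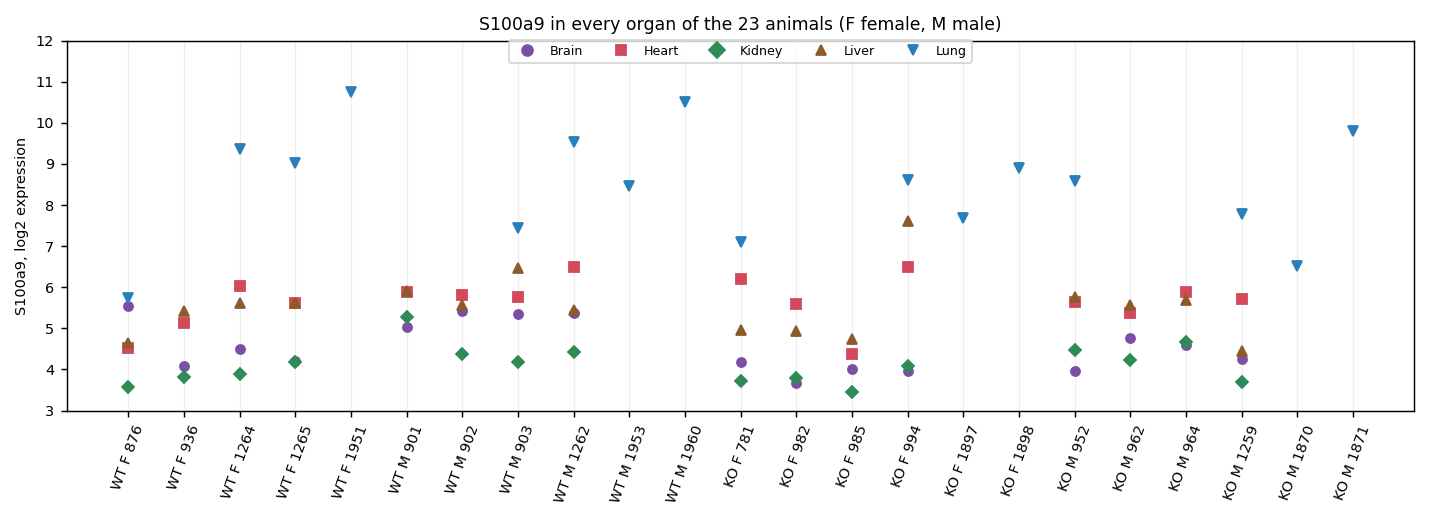
Log2 expression of S100a9 in each organ of the 23 animals, ordered by genotype, sex and animal number. WT F 876 has its brain point (5.54) close to its lung point (5.74), and KO F 994 has its liver point at 7.61.

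Blood content was followed through 15 measured red cell genes, most of them for globins, erythroid membrane proteins or haem synthesis. Bpgm, Hemgn, Isg20 and Ube2l6 on that list fall outside these classes. How far the list mean tracks blood was not tested. Their mean had r = 0.73 with S100a9 in liver (permutation p adjusted over 5 organs = 0.00983; rho = 0.61, adjusted p = 0.0625; r = 0.58 without the 2 farthest) and r = 0.67 in lung (adjusted permutation p = 0.00983; rho = 0.56, adjusted p = 0.0625; r = 0.40 without them). In brain r was -0.60 (adjusted permutation p = 0.0503; rho = -0.14) and turned to 0.28 without the 2 farthest brains. In heart and kidney r was 0.46 and 0.30 and did not pass. WT female 876 had the lowest red cell mean of the 16 arrays in each of the 5 organs, from 5.51 in brain to 6.69 in heart, and KO female 994 had the highest in liver, 6.89. Red cell genes gave no genotype call in any organ, with 0 of 15 passing in limma, beside at most 0.00585% of all genes. They had 1 gene at an unadjusted p under 0.05 in heart and 1 in liver, and medians from 0.02 in brain to 0.09 in lung. The part of blood in the calprotectin values was not tested.

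The genes whose deviations from group means most resembled the mean deviation of the 10 members over all 80 arrays, among 13801 genes above the array median in at least 1 group, were Samsn1 (r = 0.68), Il1b (0.68), Nif3l1 (0.67), Mrps11 (0.67), Atox1 (0.66), Ifitm6 (0.65), Rab8a (0.65), Grpel1 (0.64), Coa7 (0.63) and Ranbp1 (0.63). Il1b encodes the cytokine interleukin 1 beta and Samsn1 an adaptor protein of blood cells. Within the 16 lungs the 5 nearest were Spi1, which encodes the myeloid transcription factor PU.1 (0.93), Setdb2 (0.90), Trex1 (0.89), Tyrobp, a signalling adaptor of myeloid cells (0.89), and Zfp580 (0.89). Within the 16 brains they were 9930021J03Rik (0.88), Kbtbd13 (0.87), Col1a1 (0.85), Bglap (0.84) and Siglec1 (0.83). Within the 16 hearts they were Akr1c18 (0.96), Aldh3a1 (0.92), Elapor1 (0.91), Cxcl17 (0.90) and Sftpa1, a lung surfactant protein (0.90), and KO female 781 and KO male 964 are among those hearts. Within kidneys they were Thoc5 (0.91), Entpd2 (0.88), Pfkp (0.87), Sigirr (0.86) and Dennd2d (0.86), and within livers Ntmt1 (0.91), Mrps27 (0.90), Yrdc (0.89), Tram1l1 (0.89) and Mphosph6 (0.89). These are correlations across arrays given as descriptions, and the arrays share animals and processing.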

How the data were processed

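RNA from 5 organs was hybridised to 80 arrays. The deposited values are log2 intensities per probe set, made by the authors with Affymetrix Expression Console, RMA and Partek, per the submitters' processing notes. Of 45141 probe sets, 104 controls were left out, 28898 had 1 gene, 551 several and 15588 none in the platform annotation, and each of 17097 genes was read from 1 probe set, that of the highest average across the 80 arrays. The 10 members, the gene lists and the rule for named genes (all members, and for likeness the 10 genes nearest over all arrays and 5 within an organ) were chosen with earlier results of these data known.

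Groups follow the titles. Per organ, limma (version 3.58.1, R 4.3.3) was fitted to 4 group means (genotype by sex) and contrasts were averaged over sex or genotype, while organ pairs and the F test used 20 group means over all 80 arrays. P-values were Benjamini-Hochberg adjusted over 17097 genes at a threshold of 0.05. The genotype fits within each organ were also run on simulated data with independent normal noise per gene. Those data held no shared animals and no outlying arrays, so they do not cover these features. Relations used deviations from group means and two-sided permutation tests (100000 resamples, or every ordering for 9 animals). The shuffles ignored the groups, and deviations from group means are not fully exchangeable, so these p-values are approximate. Promoter windows came from RefSeq. Animal numbers pair the organs of the organ-pair comparisons, but not the genotypes or the sexes. The main organ-pair fits took arrays of the same animal as independent. A fit with the animal as a random replicate block was among the alternatives. Over those alternatives, lung minus heart stayed called for S100a8, S100a9, Ltf and Mmp9, with a highest limma adjusted p of 7.97e-05 (Mmp9). Same-animal arrays correlated with a median r of 0.096 over 132 pairs, against -0.0032 over 2428 pairs of different animals, and the estimated animal correlation was 0.074.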

Additional observations from a re-analysis of the deposited data

Results flagged for a closer look

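Of 200 groups of 4 arrays (10 members, 20 groups), 20 held an array whose gap to the nearest of the others exceeded Dixon's critical value, where chance gives about 1 in 20. Among the calprotectin genes, KO female 994 liver was high for S100a8 (7.0) and S100a9 (7.61), KO male 1259 liver was low for S100a9 (4.45), WT male 901 brain was low for S100a9 within its group (5.02), and WT female 876 kidney was low for S100a8 (3.19). For Ltf, the hearts of KO female 781 (7.96) and KO male 964 (8.56) and the brain of WT male 902 (4.50) were high.

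Lungs of animals that gave lung only were high for Ngp, in KO male 1871 (5.30) and WT male 1960 (5.84), and WT male 1960 was also high for Camp (4.65) and Elane (3.65). Ngp was high in the brain of KO male 962 (4.53), and Lcn2 in the heart of KO female 985 (4.96). Mpo was low in the brain (2.94) and kidney (2.96) of KO female 985 and in the kidney of WT female 1264 (3.20), and high in the heart of WT female 876 (3.64). Mmp9 was low in the liver of KO female 982 (3.79) and the heart of WT female 936 (4.0).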

How the results depend on the processing

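Members kept 0 calls for KO against WT in every organ under every alternative run, and the brain S100a9 difference stayed between -0.90 and -0.61. The number of arrays, 4 a group, limits every genotype comparison. Unless construction shows it (fewer arrays, or more arrays and probe sets), the cause of a change below was not tested.

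With the animal as a random replicate block over all 80 arrays, genes called for KO against WT went from 0 to 14 in brain, 1 to 5 in heart, 0 to 1 in kidney, 1 to 21 in liver and 1 to 3 in lung, and members called for sex in kidney from 1 to 0. The same 80 arrays without the block gave 13, 5, 1, 22 and 2. The block put heart S100a9 at -0.022 and liver S100a8 at -0.0043.

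All probe sets gave 1 gene in brain, 3 in liver and 5 in lung. Females alone gave 1 in brain and 0 in lung, and males alone 0 in heart, 0 in liver and 2 in lung. Without moderation heart and liver had 0, and the members called for sex in liver fell to 0. Heart without KO female 781 and KO male 964, and lung without the lung-only animals, had 0. Members called with WT arrays alone were 3 for heart minus brain, 3 for liver minus brain and 1 for liver minus heart. They were 8 for kidney minus brain on the 32 arrays of both organs, and 3 for liver minus heart after quantile normalisation. For sex in kidney they were 6 after median centring and 2 with an intensity trend and robust prior.

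Values near 0 changed sign. Heart S100a9 (0.00) was -0.054 with array weights, -0.023 after centring, -0.34 in males, -0.031 after quantile normalisation and -0.12 without the hearts of 781 and 964. Liver S100a8 (0.02) was -0.35 with weights, -0.33 in males and -0.39 without the livers of 994 and 952. Liver S100a9 (-0.12) was 0.25 in females, and lung Ltf (0.05) was -0.32 in males and -0.45 without the lung-only animals.

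Leaving out 1 array gave 0 to 1 genes in brain (1 without KO male 962 or 964), 1 to 3 in heart (3 without KO female 982) and 1 to 2 in lung (2 without KO male 1871). It gave 2 to 5 members for kidney minus brain (5 without the WT male 1960 lung), and for sex 0 to 1 in brain, 1 to 2 in kidney (2 without KO male 962, WT female 876 or WT male 902) and 0 to 1 in liver. Differences ran from -0.14 to 0.22 for heart S100a9, -0.36 to 0.19 for liver S100a8, -0.46 to 0.037 for liver S100a9, -0.43 to 0.47 for lung Ltf, -0.43 to 0.054 for lung Ngp, 0.49 to 0.73 for brain S100a9 by sex and -1.94 to -1.46 for liver Lcn2 by sex.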
